A study of Mus musculus with 6 samples.

Results

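The genes described here are 9 ADP-ribosyltransferases of the PARP family and Dtx3l, the ubiquitin ligase that pairs with Parp9. They were chosen by name, as the rows of the count table labelled Parp1, Parp2, Parp3, Parp8, Parp9, Parp10, Parp11, Parp12, Parp14 and Dtx3l. All 10 were found among 23122 genes, and all 10 passed the filter on low counts, which left 14189 genes for testing. The tumors were grown from 500000 CT26 cells, a colorectal carcinoma line of the BALB/c strain, placed under the skin of female BALB/c mice aged 6 to 8 weeks. Once a tumor had reached 100 to 200 mm3, the animal was assigned at random to vehicle or to TP-18 at 50 mg/kg, by mouth once daily, and treatment lasted 3 weeks. TP-18 is named in the series title as an antagonist of EP2 and EP4, receptors for prostaglandin E2. RNA of 3 vehicle and 3 TP-18 tumors was sequenced, with 34813482 to 36489081 counts per library. All tumors came from the same cell line. Nothing in the labels ties each sample to an animal of its own, so p-values measure only the spread between these samples.

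PARP proteins take ADP-ribose from NAD and attach it to proteins or nucleic acids. Parp1 and Parp2 build chains of it at DNA breaks and Parp3 also acts in break repair, whereas Parp10, Parp11, Parp12 and Parp14 attach it as isolated units. Parp9 and Dtx3l work as a pair in ubiquitin transfer and in the response to viruses and DNA damage. Textbook knowledge places Parp9, Dtx3l, Parp10, Parp11, Parp12 and Parp14 among genes that interferons induce, and these 6 are called the interferon-induced members below. Interferon itself was not applied to these tumors, so that name is background and not a measurement. The name covers these 6 members only and says nothing of PARP genes outside the members. Whole tumors hold cancer, immune and stromal cells, and fewer cells of a type and less RNA per cell cannot be told apart in such samples.

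Promoter windows from the RefSeq annotation of GRCm38.p6, from 250 bases before to 50 after a start, were at hand for 7 of the members in 8 windows. They cover Parp1, Parp2, Parp3, Parp8, Parp11 with 2 starts, Parp12 and Dtx3l. Each was searched on both strands for the letters of the interferon gamma activated site (GAS), TTCNNNGAA, and for the core of the interferon-stimulated response element (ISRE), GAAANNGAAA or TTTCNNTTTC. The upstream start of Parp11 is shown because it holds the only matches, and the downstream start of Parp11 and the start of Parp12 because these members also rose and their windows hold none. Dtx3l also rose and its window also holds none, but it is not shown. The sequences run 5′ to 3′ toward the start, and capitals mark matches to either motif. First exons are those of GENCODE. For Parp11 the GENCODE model begins at 127446840 and the RefSeq gene model at 127446830, within the last bases printed.

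Parp11 upstream start, GRCm38.p6 chr6:127446590-127446839, plus strand, before the first exon: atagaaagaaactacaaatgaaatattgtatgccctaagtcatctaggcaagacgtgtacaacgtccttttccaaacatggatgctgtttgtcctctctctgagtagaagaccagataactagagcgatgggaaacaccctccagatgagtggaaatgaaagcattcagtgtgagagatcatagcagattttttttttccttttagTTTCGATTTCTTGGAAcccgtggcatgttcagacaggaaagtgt

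Parp11 downstream start, GRCm38.p6 chr6:127453377-127453619, plus strand, within an intron of the longer gene model: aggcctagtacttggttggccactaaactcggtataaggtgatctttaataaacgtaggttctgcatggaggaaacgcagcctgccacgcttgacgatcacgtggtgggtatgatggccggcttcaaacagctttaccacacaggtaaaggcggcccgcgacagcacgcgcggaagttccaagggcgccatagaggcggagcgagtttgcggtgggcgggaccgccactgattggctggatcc

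Parp12, GRCm38.p6 chr6:39118350-39118599, minus strand, before the first exon: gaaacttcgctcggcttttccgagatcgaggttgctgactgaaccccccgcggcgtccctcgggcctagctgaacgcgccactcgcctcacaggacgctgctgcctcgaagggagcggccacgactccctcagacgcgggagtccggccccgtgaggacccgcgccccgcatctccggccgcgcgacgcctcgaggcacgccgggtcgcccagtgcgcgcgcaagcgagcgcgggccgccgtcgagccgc

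The window of the upstream Parp11 start was the only one of the 8 with a match to either motif. It held TTTCGATTTC, the ISRE core read on the other strand, from -44 to -35 relative to the start, and TTCTTGGAA, a GAS, from -37 to -29. The matches share the bases from -37 to -35 and appear as 1 run of capitals. Of 32851 promoter windows of this length, 3.44% held the ISRE core, 8.30% held the GAS and 0.454% held both. With C required after the core the Parp11 match remained, as GTTTCGATTTC from -45, and 0.819% of windows held that longer form. With 4 bases between TTC and GAA the only match was TTCTGGGGAA in the Dtx3l window, from 35 to 44 bases into the transcript, and 6.95% of windows held that form. The files hold counts per gene and not per start, so the level from each Parp11 start was not measured. The Parp12 window was rich in G and C, at 73.7%, against 42% for the upstream Parp11 window.

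TP-18 and vehicle tumors were compared to see which of these genes differed in level at the end of treatment. All 6 interferon-induced members rose, by 1.76-fold for Parp10 to 3.22-fold for Parp14, and none of the 4 others passed the test. Calls were made with the quasi-likelihood test of edgeR at an adjusted p under 0.05, with Benjamini-Hochberg adjustment over all 14189 genes. By that rule 7.09% of all tested genes were higher and 5.26% were lower in TP-18 tumors. By the deposited FPKM, which are scaled to the total count, 86.2% to 88.8% of called genes were higher against 57.4% in the count test, and the median of the tested genes stood at up to 0.13 (log2) against -0.01. The median log2 change was 0.93 over the 10 members and 1.06 over the interferon-induced ones. In 8 members every TP-18 tumor was above every vehicle tumor, as in 18% of all tested genes.

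**Figure D1:**
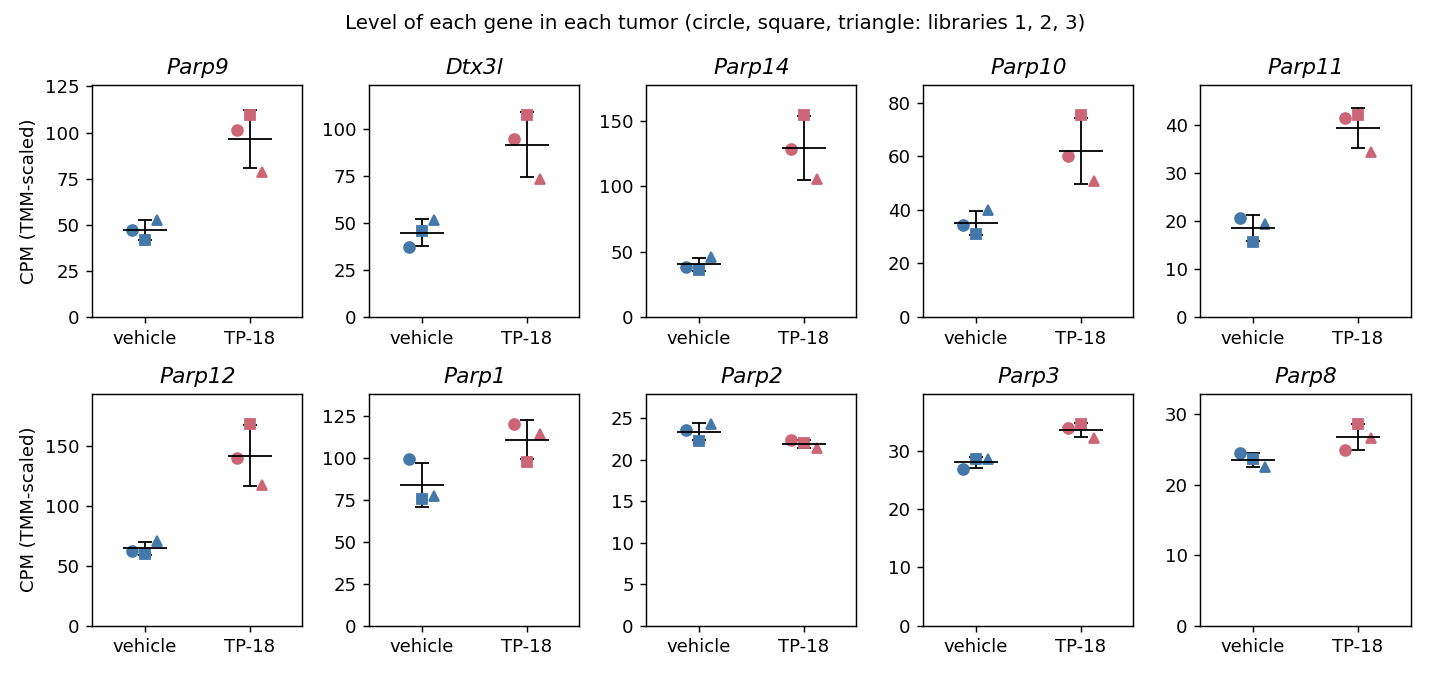
Level of each gene in CPM (counts scaled to library size by TMM, vertical axis from 0) in each vehicle and TP-18 tumor, with the mean (bar) and SD of 3 tumors. The groups lie apart in the 6 interferon-induced genes and in Parp3 and Parp8, and they overlap in Parp1 and Parp2.

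Parp14, a large enzyme that carries macrodomains, which bind ADP-ribose, had the largest change of the members. Its levels, as CPM (counts scaled to library size), were 38.3, 36.1 and 46.2 CPM in vehicle tumors 1, 2 and 3 and 129, 155 and 105 CPM in TP-18 tumors 1, 2 and 3. The lowest TP-18 tumor was well above the highest vehicle tumor. The means were 40.2 ± 5.31 and 130 ± 24.6 CPM (SD, n = 3 per group), on 4005 and 14560 reads. The log2 change was 1.69 ± 0.16 (SE) with an edgeR adjusted p of 0.00182, and 96.7% of tested genes had a smaller or equal change. Parp14 (Entrez 547253) lies on the minus strand of chromosome 16, from 35831892 to 35871518 in GRCm38.p6.

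Dtx3l and Parp9 lie on the same chromosome, 54996 bases beyond Parp14. Their gene models face away from each other and overlap at their starts. Dtx3l (Entrez 209200) runs on the minus strand from 35926515 to 35939027 and Parp9 (Entrez 80285) on the plus strand from 35938470 to 35972621. In the GENCODE models of this build 458 bases, from 35938694 to 35939151, are exonic in both, which is 9.40% of the exon bases of Parp9 and 8% of those of Dtx3l. Whether counting used strand is not given in the sources used here, so reads from that stretch cannot be assigned to either gene.

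Parp9, which binds ADP-ribose through macrodomains, measured 46.9, 41.8 and 52.8 CPM in the vehicle tumors and 101, 109 and 78.8 CPM in the TP-18 tumors. All TP-18 tumors were higher, and TP-18 3 was nearest to the vehicle range. The log2 change was 1.03 ± 0.14 with an edgeR adjusted p of 0.00584. Dtx3l, the ligase of the pair, measured 37.0, 46.0 and 51.5 CPM in vehicle and 94.4, 107 and 73.3 CPM in TP-18 tumors. The log2 change of Dtx3l was 1.03 ± 0.17 with an edgeR adjusted p of 0.0126. Vehicle 1 was the lowest for Dtx3l but not for Parp9. The Dtx3l call was lost without vehicle 2, at an adjusted p of 0.0560, where all its alternatives ranged from 3.84e-07 to 0.0560.

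The partners were also compared within each tumor, as the log2 ratio of Parp9 to Dtx3l CPM. That ratio does not depend on scaling between libraries, but CPM are not scaled to gene length, so its sign does not rank the genes. Per length the mean of Parp9 was above that of Dtx3l, at 11.4 against 8.19 FPKM in vehicle and 25.7 against 18.5 in TP-18 tumors. The log2 CPM ratio was 0.34, -0.14 and 0.03 in vehicle tumors 1, 2 and 3 and 0.10, 0.03 and 0.11 in the TP-18 tumors. The groups overlapped, and the means were 0.08 ± 0.24 and 0.08 ± 0.04 (SD, n = 3 each). The difference was -0.003, with a two-sided exact permutation p of 0.9. The sign of that difference changed without vehicle 1 or without TP-18 2. How reads in the exons that the genes share were counted is not given, and their part in the ratio was not tested.

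Parp12, a zinc-finger PARP known for restraint of viral replication, had the highest level per length of the interferon-induced members. It measured 62.1, 60.3 and 71.2 CPM in vehicle and 140, 169 and 118 CPM in TP-18 tumors, with no overlap. The rise was 1.14 ± 0.14 on the log2 scale with an edgeR adjusted p of 0.00395. Parp12 (Entrez 243771) spans 39086412 to 39118349 on chromosome 6.

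Parp11, an enzyme linked to the nuclear envelope and to turnover of the type I interferon receptor, had the lowest level per length of the interferon-induced members. It measured 20.6, 15.5 and 19.4 CPM in vehicle and 41.5, 42.0 and 34.4 CPM in TP-18 tumors. Every TP-18 value exceeded every vehicle value. The log2 change was 1.08 ± 0.13 with an edgeR adjusted p of 0.00412. Parp11 (Entrez 101187) spans 127446830 to 127514233 on chromosome 6 and has the promoter match printed above. Gm34148, a noncoding gene inside the first intron of the longer model, had 0 to 2 reads per library.

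Parp10, a mono-ADP-ribosyltransferase known as a partner of Myc, had the smallest change of the interferon-induced members. It measured 34.4, 31.1 and 39.9 CPM in vehicle and 60.0, 75.3 and 50.6 CPM in TP-18 tumors. The groups did not overlap, with vehicle 3 and TP-18 3 closest to each other. The log2 change was 0.82 ± 0.16 with an edgeR adjusted p of 0.0199. Of the fits with 1 library left out, the call was lost without vehicle 2, at 0.0784, and without TP-18 1, at 0.0546, and all alternatives ranged from 7.01e-05 to 0.0784. Parp10 (Entrez 671535) spans 76232995 to 76243440 on chromosome 15.

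**Figure D2:**
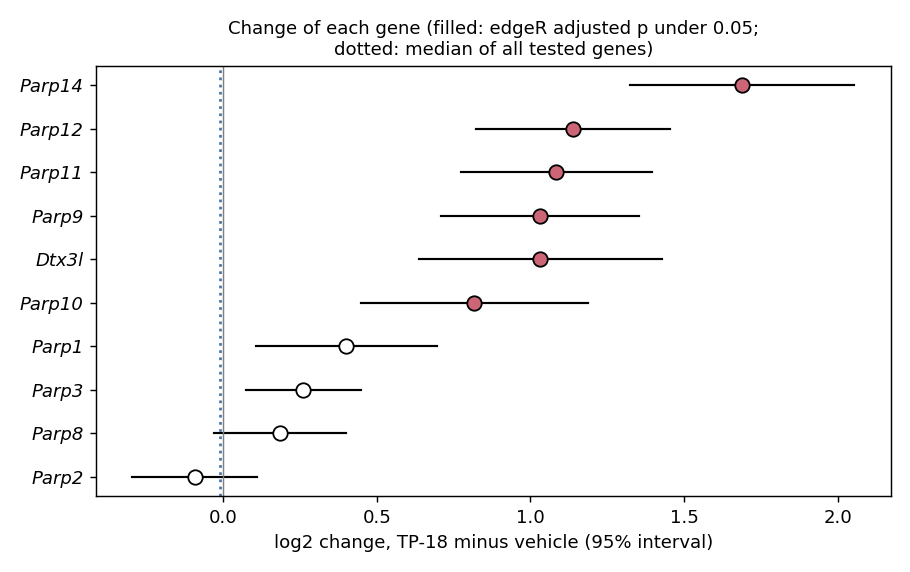
Log2 change of each gene, TP-18 minus vehicle, with its 95% interval from the edgeR fit. The 6 filled points, from Parp10 at 0.82 to Parp14 at 1.69, passed an adjusted p of 0.05, and the open points of Parp1, Parp3, Parp8 and Parp2 did not. The dotted line marks the median of all tested genes, -0.01.

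The members outside the interferon-induced group had smaller changes that missed the threshold. Parp1, the main enzyme of ADP-ribose chain formation at DNA breaks, measured 99.3, 75.5 and 77.2 CPM in vehicle and 120, 97.9 and 114 CPM in TP-18 tumors. The groups overlapped, since vehicle 1 was above TP-18 2. Its log2 change was 0.40 with a 95% interval from 0.11 to 0.70 and an edgeR adjusted p of 0.0773. It passed without vehicle 1, at 0.0160, and by DESeq2, at 0.0323, and all alternatives ranged from 0.0160 to 0.225.

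Parp3, which acts at double-strand breaks, had even replicates. It measured 26.9, 28.7 and 28.6 CPM in vehicle and 33.9, 34.7 and 32.3 CPM in TP-18 tumors, with no overlap. A log2 change of 0.26 was measured, with an interval from 0.07 to 0.45 and an edgeR adjusted p of 0.0724. It passed by limma on FPKM, at 0.0219 to 0.0251, and all alternatives ranged from 0.0219 to 0.196.

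Parp8, a little-studied member, measured 24.4, 23.6 and 22.5 CPM in vehicle and 24.9, 28.6 and 26.6 CPM in TP-18 tumors. The gap between the highest vehicle and the lowest TP-18 tumor was small. The change was 0.19 (log2), with an interval from -0.03 to 0.40 and an edgeR adjusted p of 0.225. Parp2, the close relative of Parp1, measured 23.6, 22.3 and 24.3 CPM in vehicle and 22.4, 22.0 and 21.4 CPM in TP-18 tumors. Its log2 change was -0.09, with an interval from -0.29 to 0.11 and an edgeR adjusted p of 0.519, and it was 0.04 to 0.05 by limma on FPKM. For these 4 genes the intervals end at or below 0.70, and a missed threshold does not show equal levels.

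Levels were compared between genes per length, as deposited FPKM (fragments scaled to gene length and library total). In vehicle tumors Parp1 came highest at 22.0 ± 4.49 FPKM, followed by Parp12 at 19.0 ± 1.37, and their ranges overlapped. Parp9 at 11.4, Parp10 at 9.84, Dtx3l at 8.19 and Parp3 at 8.09 FPKM came next, and each overlapped its neighbour in this order. Parp2 at 5.42, Parp14 at 4.50, Parp11 at 3.10 and Parp8 at 2.34 FPKM followed, each apart from the next. In TP-18 tumors Parp12 came highest, at 46.2 ± 7.52 FPKM, and did not overlap Parp1 at 31.9 ± 3.68. Parp14 moved from rank 8 to rank 6 at 16.0 ± 2.77 FPKM, and Parp11, at 7.24 ± 0.68, stood above Parp2 at 5.61 ± 0.10. Parp8 was lowest in both groups, at 2.93 ± 0.18 FPKM in TP-18 tumors.

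**Figure D3:**
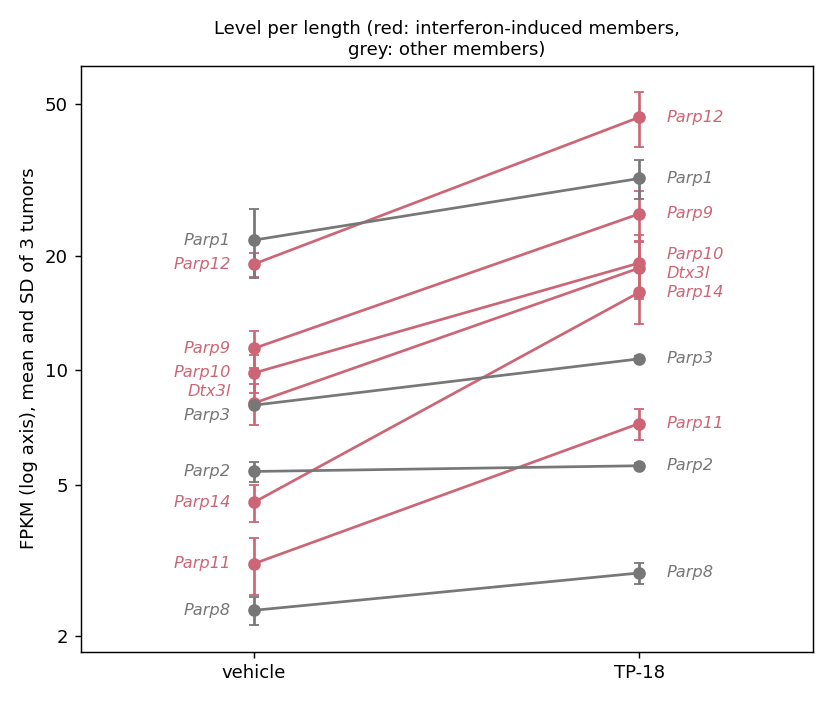
Mean level per length (FPKM, log axis) of each gene in vehicle and TP-18 tumors, with the SD of 3 tumors. The red lines of the 6 interferon-induced genes rise more steeply than the grey lines of Parp1, Parp2, Parp3 and Parp8, and Parp12 passes Parp1.

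Summed over the 9 PARP genes, FPKM were 93.0, 77.6 and 86.4 in vehicle and 168, 179 and 149 in TP-18 tumors. The 5 interferon-induced PARPs made up 55.9% ± 3.33 of that sum in vehicle and 68.8% ± 4.55 in TP-18 tumors (SD, n = 3). The share of Parp14 went from 5.26% ± 0.48 to 9.63% ± 0.79. The share of Parp1 was 25.5% ± 3.42 and 19.5% ± 3.64. Parp10, which rose in the test above, made up 11.5% ± 0.88 in vehicle and 11.5% ± 1.12 in TP-18 tumors. These shares describe transcripts of these 9 genes only and carry no test.

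The sizes of the changes were compared within tumors. In total 11 log2 ratios were compared with two-sided exact permutation tests, which with 3 against 3 tumors cannot go below p = 0.1, and none could pass 0.05. The log2 ratio of Parp14 to Parp9 was -0.29, -0.21 and -0.19 in vehicle and 0.35, 0.50 and 0.42 in TP-18 tumors. The groups did not overlap, and the difference was 0.65 (exact permutation p = 0.1, adjusted 0.138). The sign of a CPM ratio depends on gene length, and per length Parp14 was below Parp9 in every tumor. For the log2 ratio to Parp14 the difference was -0.87 for Parp10, -0.59 for Parp11 and -0.55 for Parp12, each without overlap of the groups and each with an exact permutation p of 0.1.

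**Figure D4:**
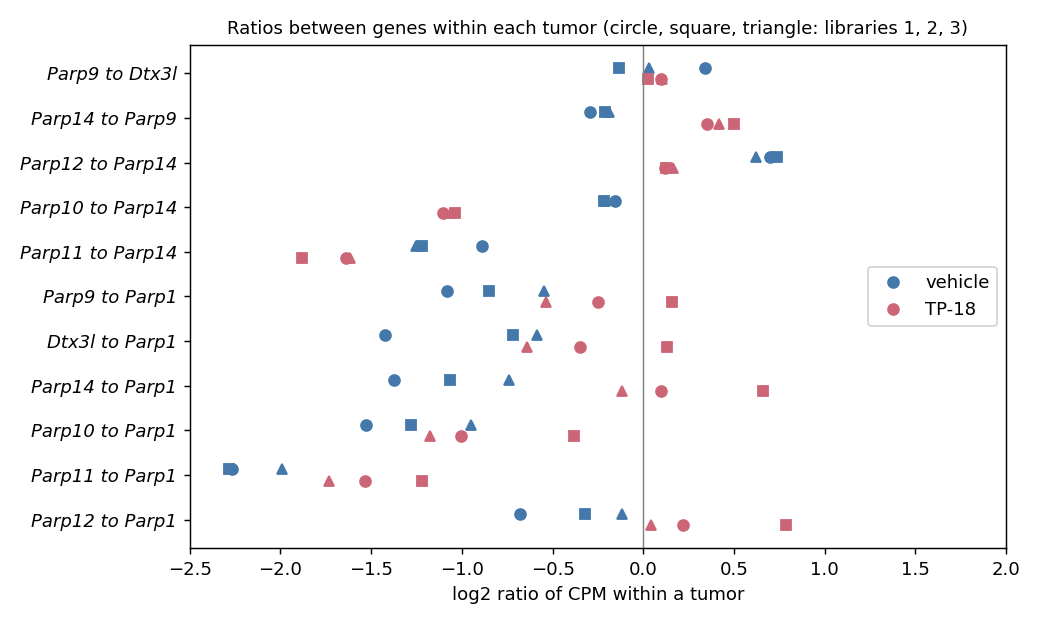
Log2 ratio of CPM of 2 genes within each tumor, with symbols for libraries 1, 2 and 3. The groups lie apart in the 4 ratios of Parp14 with other interferon-induced members, and they overlap for Parp9 to Dtx3l, Dtx3l to Parp1 and Parp10 to Parp1.

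Parp1 was used as a further denominator. The log2 ratio of Parp14 to Parp1 was -1.38, -1.06 and -0.74 in vehicle and 0.10, 0.66 and -0.12 in TP-18 tumors, a difference of 1.27 (exact permutation p = 0.1). For Parp12 to Parp1 the difference was 0.72, for Parp11 to Parp1 0.68 and for Parp9 to Parp1 0.62, each with the same p and no overlap. For Dtx3l to Parp1 it was 0.62 and for Parp10 to Parp1 0.40, and both overlapped, with exact permutation p-values of 0.2 and 0.3 (adjusted 0.244 and 0.33). Of the interferon-induced members, Dtx3l and Parp10 thus did not separate from Parp1 in every tumor. The separation of Parp9 was narrow, with a log2 ratio to Parp1 of -0.550 in vehicle 3 and -0.538 in TP-18 3.

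Within a group, tumors that were high for one interferon-induced member tended to be high for the others. TP-18 2 had the highest and TP-18 3 the lowest level for 6 of 6 interferon-induced members. In vehicle, tumor 3 was highest for 5 of 6, the exception being Parp11, and tumor 2 was lowest for 5 of 6, the exception being Dtx3l. Ifng, the gene of interferon gamma, had the same TP-18 order, from 4.54 CPM in TP-18 2 to 2.23 in TP-18 3, but in vehicle it was highest in tumor 1, as Parp11 was. That vehicle order rests on only 16, 4 and 12 reads of Ifng in tumors 1, 2 and 3. Parp3, outside the interferon-induced group, also had that TP-18 order, and Parp2 was lowest in TP-18 3 as well. Parp8 was highest in TP-18 2 but lowest in TP-18 1, and Parp1 was lowest in TP-18 2. With 3 tumors per group these orders are descriptions.

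**Figure D5:**
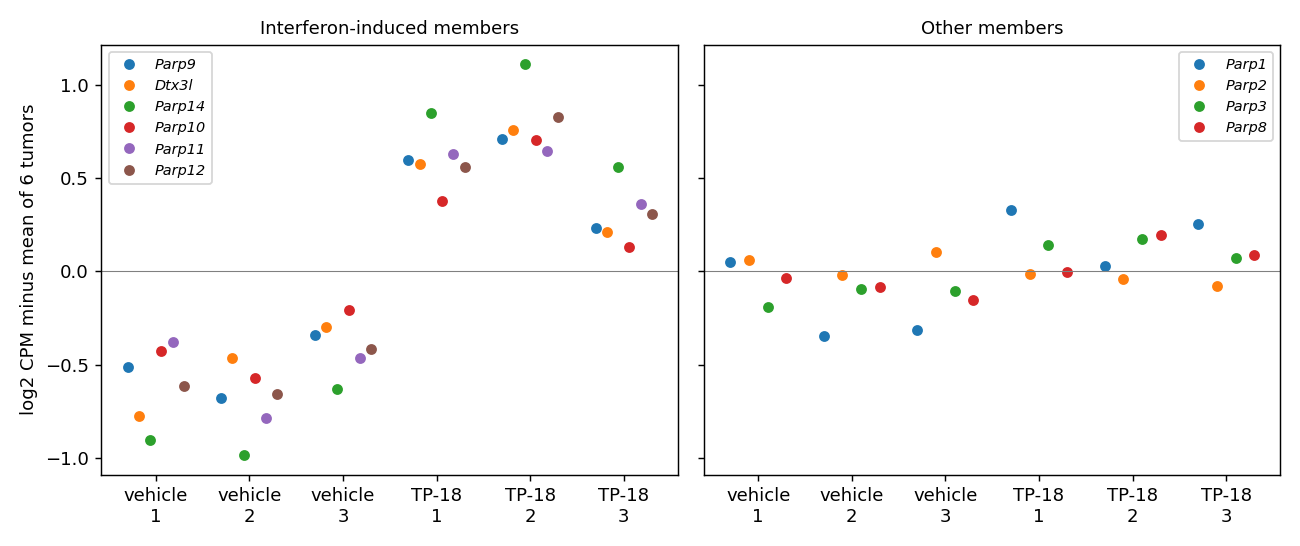
Log2 CPM minus the mean of the 6 tumors for each gene, by tumor. The interferon-induced members lie below 0 in vehicle and above 0 in TP-18 tumors, with Parp14 farthest from 0 in each TP-18 tumor. Parp1 lies among them in TP-18 3, farther from 0 than Parp9, Dtx3l and Parp10.

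Genes with a similar pattern were sought among 12065 other protein-coding genes, by the root mean square difference of centred log2 CPM over the 6 tumors. Closest to Parp14 were Gbp9, a guanylate-binding protein, at 0.03 and Irgm1, an immunity-related GTPase, at 0.09. Closest to Parp9 were Ifih1, a sensor of double-stranded RNA, at 0.05, Tap1, a peptide transporter subunit, at 0.06, and Phf11b at 0.06. Closest to Dtx3l were Rnf213, a large ubiquitin ligase, at 0.08, Serpinb6b, a protease inhibitor, at 0.08, and Tap1 at 0.10. The partners Parp9 and Dtx3l differed from each other by 0.14. The nearest genes were picked as the smallest of 12065 differences, so they give no measure of how alike the partners are. Parp12 was the member nearest to Parp9, at 0.08, and to Dtx3l, at 0.12.

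Other genes of ADP-ribosylation showed few calls. Of 7 further PARP family genes, including the tankyrases Tnks and Tnks2, Tiparp and Zc3hav1, 0 passed in either direction by edgeR, with 4 at an unadjusted p under 0.05, and their median log2 change was -0.02. DESeq2 called 2 of them lower, Parp16 and Tiparp, and edgeR called 3 lower without vehicle 1. The 3 with the smallest p were Parp16 at -0.57 (adjusted p = 0.0713), Parp6 at -0.39 (0.106) and Parp4 at 0.22 (0.128). Zc3hav1 measured 189 ± 21.7 CPM in vehicle and 190 ± 4.55 CPM in TP-18 tumors. Its log2 change was 0.01 (edgeR adjusted p = 0.953). Of 9 tested genes for removal of ADP-ribose or, like Hpf1, for its placement on serine, 2 fell and 0 rose. Of all tested genes, 5.26% were lower and 7.09% were higher by the same rule. Adprh, which frees arginine from ADP-ribose, fell by 0.38 on the log2 scale (edgeR adjusted p = 0.0298), from 60.4 ± 5.16 to 46.3 ± 1.70 CPM. Macrod1, a mitochondrial hydrolase with a macrodomain, fell by 0.48 (adjusted p = 0.0390), from 12.8 ± 0.31 to 9.17 ± 0.51 CPM. Adprhl2, which removes ADP-ribose from serine, had a log2 change of -0.24 (0.127). Adprh kept its call without vehicle 1 or vehicle 3 and lost it without vehicle 2 or any of the TP-18 libraries, at 0.0662 to 0.115. Macrod1 lost its call without any one library, at 0.0509 to 0.125. By limma on FPKM 0 of the 9 genes passed.

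Break repair partners of Parp1, NAD metabolism and the other Deltex genes had no calls by edgeR. Of 8 repair genes, 0 passed by edgeR, DESeq2 or limma, 1 had an unadjusted p under 0.05 by edgeR and the median was -0.004, with Aptx at -0.27 (adjusted p = 0.118), Timeless at 0.40 (0.200) and Chd1l at -0.18 (0.296). Of 9 tested genes of NAD synthesis and breakdown, 0 passed by edgeR, 2 had an unadjusted p under 0.05 and the median was 0.24. Cd38, an NAD-consuming enzyme of leukocytes, measured 7.23 ± 2.07 and 23.9 ± 14.7 CPM and missed the threshold by edgeR, at 0.0704. DESeq2 called Cd38 higher, at an adjusted p of 0.000111, as did edgeR with non-robust moderation and limma on FPKM with a pseudocount of 0.1. Nmnat3 had a log2 change of 1.08 (0.107) and Naprt of 0.81 (0.209). Of 3 tested Deltex relatives of Dtx3l, 0 passed by edgeR, DESeq2 or limma and 1 had an unadjusted p under 0.05 by edgeR, with Dtx3 at -0.43 (0.102), Dtx4 at 0.84 (0.209) and Dtx2 at -0.19 (0.270). Without TP-18 2, Dtx3 passed at 0.0426.

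Several genes of interferon signalling were also higher, and their part in the rise of the interferon-induced members was not tested. Of 12 genes of interferon gamma, interferon receptors, their kinases and the transcription factors they act through, 7 rose and 0 fell, with a median log2 change of 0.48, where 7.09% of all tested genes were higher. With 1 library left out, 3 to 6 of the 12 were called higher, with 3 without vehicle 2 and 4 without TP-18 1 or TP-18 2. Irf1, an interferon-induced transcription factor, rose by 1.30 ± 0.17 (edgeR adjusted p = 0.00604) and Ifng by 3.42 ± 0.50 (0.00726), and both passed whichever library was left out. Ifng had few reads, 4 to 16 in vehicle and 87 to 166 in TP-18 libraries.

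Marker sums of some cell types differed between the groups, and those of others overlapped. The calls below stand beside 7.09% of all tested genes higher and 5.26% lower by edgeR. Summed over 7 T cell markers, levels were 10.5 to 19.8 CPM in vehicle and 54.5 to 62.8 CPM in TP-18 tumors, with 7 of 7 higher by edgeR. Over 5 pan-leukocyte markers they were 260 to 380 and 613 to 731 CPM, with 4 of 5 higher, and Ptprc, the gene of CD45, rose by 1.38 ± 0.10 (log2, adjusted p = 0.00131). Over 7 macrophage markers they were 748 to 1228 and 1480 to 1583 CPM, with 1 of 7 higher. Skeletal muscle markers were also higher, at 9.17 to 28.7 and 55.8 to 119 CPM with 4 of 8 called. Red blood cell markers were lower, at 66.2 to 362 and 15.5 to 35.0 CPM with 4 of 5 tested genes called. Neutrophil markers overlapped, at 33.2 to 301 and 62.0 to 94.6 CPM, as did endothelial markers, at 61.0 to 150 and 112 to 229 CPM, and fibroblast markers, at 1776 to 3635 and 2345 to 3347 CPM. The part of any of these in the changes of the PARP genes was not tested.

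Of 10 marker genes of colon epithelium, 4 passed the filter on low counts in these tumors of a colorectal line. Epcam had 0 to 2 reads in vehicle and 7 to 24 in TP-18 libraries, Vil1 had 0 to 8 and Cdx2 2 to 16 reads in any library. Lgals4 had 67 to 146, Cdh1 37 to 195 and Krt18 156 to 416 reads. Cdh1 measured 1.85 ± 0.71 CPM in vehicle and 4.09 ± 0.80 CPM in TP-18 tumors (edgeR adjusted p = 0.0647), and Krt18 10.6 ± 2.24 and 5.84 ± 1.76 CPM (0.0649). Krt20 was abundant, at 6838 to 12016 reads, and was lower in TP-18 tumors (log2 change -0.60, edgeR adjusted p = 0.0204).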

How the data were processed

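RNA sequencing counts of 6 tumors were analysed. The submitters' processing notes name fastp, HISAT2, HTSeq and the build GRCm38, and give no versions or strand setting. The deposited table holds whole-number counts per gene. The deposited FPKM equal each count divided by a fixed gene length and the library total, as checked on 12216 genes with at least 20 counts in each library. Groups come from the labels. Counts were tested in R 4.3.3 with edgeR 4.0.16: filterByExpr (minimum count 10, minimum total 15), TMM scaling, robust quasi-likelihood F test, two-sided, with Benjamini-Hochberg adjustment over 14189 genes and a threshold of 0.05. Log2 fold changes use a prior count of 0.125, and SE come from the F statistic. The 95% intervals are per gene and unadjusted. Marker sums are CPM on total counts, and all other CPM are TMM-scaled. Coordinates are from RefSeq (GRCm38.p6) and GENCODE. The procedure was tested on simulated data. At the same threshold it recovered 80 of 100 2-fold and 87 of 100 4-fold changes, and 17 of 184 calls were false. The named genes are the 10 members, up to 3 genes of each pathway list by smallest p, and the 3 nearest genes of Parp9, Dtx3l and Parp14, of which some are not reported here. Gm34148, Ptprc, Epcam, Vil1, Cdx2, Lgals4, Cdh1, Krt18 and Krt20 are named as overlapping genes or markers, and Hpf1, Tnks, Tnks2, Tiparp and Zc3hav1 to say what a list holds. For Zc3hav1 the values are given as well. Members and lists were chosen with earlier results of these data known. Errors cover the spread between libraries, not PCR copies. Alternatives were RLE and upper-quartile scaling, other filters, non-robust moderation, a replicate block, DESeq2 1.42.0, limma 3.58.1 (voom, and log2 FPKM with pseudocounts of 1 and 0.1), a threshold of 0.10 and leaving out each library.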

Additional observations from a re-analysis of the deposited data

How the results depend on the processing

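The count of 6 members higher was 4 to 7 with a library left out, 7 by DESeq2 and by limma on FPKM, 8 at an adjusted p under 0.10 and 6 under the other scalings, filters and voom, and no member was called lower in any of these. Parp9, Parp11, Parp12 and Parp14 kept their calls in all 17 alternatives. The number of tested genes called, 1753 in all, was 499 to 2239 with a library left out, 2704 by DESeq2, 846 by limma on FPKM without a filter and 3022 at an adjusted p under 0.10. The log2 change of Parp2, -0.09, was 0.043 (pseudocount 1, with or without a filter) and 0.051 (pseudocount 0.1) by limma on FPKM. The difference in the log2 ratio of Parp9 to Dtx3l ranged from -0.11 without vehicle 2 to 0.13 without vehicle 1 and was 0.022 without TP-18 2, against -0.003. The replicate numbers are not said to pair the tumors, and deviations of tumors with equal numbers correlated at 0.24, -0.08 and -0.04. With the replicate number as a block 5 members and 778 genes were called, with 4 of the 12 interferon signalling genes and 0 of the 9 genes of ADP-ribose removal, and Parp10 had an adjusted p of 0.0701. Fits with a library left out hold fewer tumors and so less power.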

Other observations

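Gm15564, a noncoding gene that GENCODE annotates antisense to the end of Parp9, was chosen after its values were seen. Its gene model shares 5871 bases with that of Parp9 in RefSeq (GRCm38.p6, chromosome 16, 35966751 to 35972621). Vehicle tumors gave 52, 49 and 55 reads for it and TP-18 tumors 21, 29 and 11, so every TP-18 tumor was below every vehicle tumor, while Parp9 was higher in all of them. Its log2 change was -1.52 ± 0.42 (SE), and its edgeR adjusted p of 0.0518 missed the threshold. The shared stretch is an overlap of gene models, not of exons alone. Without a known strand setting, how reads there were divided between this gene and Parp9 is not known.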
